A study of Mus musculus with 45 samples.

Results

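The embryonic mouse ventricle was compared between the embryonic stages E14.5 and E12.5 (days of embryonic development) on 12 of the 45 arrays of a heart development series. These were the 6 arrays of E14.5 ventricles and the 6 of E12.5 ventricles, with 3 left (LV) and 3 right (RV) ventricle samples at each stage. All came from wild-type embryos of the CD1 strain from timed matings, staged by morphology and somite count, with no treatment, and 10 to 20 hearts were pooled per replicate. The other 33 arrays held R1 embryonic stem cells, whole E7.5 embryos, hearts of E8.5, and both ventricles at E9.5, at E18.5, 3 days after birth and in adults. They entered the fit to steady the estimate of each gene's spread. Left and right ventricles of the same stage and number were averaged, which gave n = 3 values per stage. Expression is given as log2 values of RMA (robust multi-array average), so that a difference of 1 is 2-fold, and a positive difference means higher at E14.5. Differences carry the standard error of the fit, and stage means the SD over the 3 values. A gene was called where its adjusted p in limma was under 0.05.

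Between these stages the trabeculated ventricle of the midgestation embryo thickens its compact wall. A coronary plexus spreads through that wall and connects to the aorta, and fibroblasts and mural cells derived from the epicardium settle in it. Muscle cells keep dividing while their sarcomeres and mitochondria mature, the extracellular jelly between endocardium and muscle is lost, and endocardial cushions turn into valves. Red cells of yolk sac origin, which carry embryonic globins, are replaced in the circulation by red cells from the fetal liver.

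The 5 ventricle marker genes (Myl2, Myl3, Irx4, Hey2 and Myh7) had list means of 12.53 to 12.74 in all 12 arrays, and 0 of the 5 were called between the stages (0 also at an unadjusted p under 0.05, limma). Markers of skin, liver, skeletal muscle and thymus were high in single E14.5 arrays. In E14.5 left ventricle replicate 2 the mean of 11 skin genes was 8.33, against 5.62 to 5.98 in the other E14.5 arrays and 5.54 to 5.71 at E12.5. The mean of 10 liver genes was 9.23 there, 7.96 in left replicate 3 and 7.19 in right replicate 1, against 5.14 to 5.52 in the other 3 E14.5 arrays and 4.84 to 6.21 at E12.5. The mean of 8 skeletal muscle genes was 7.54 in left replicate 2 and 6.08 in left replicate 1, against 4.87 to 5.42 in the other 4 E14.5 arrays and 5.14 to 5.84 at E12.5. Thymus genes also had their highest mean in left replicate 2, 5.46 against 4.42 to 4.6 in the other E14.5 arrays. Cartilage genes instead were highest in all 3 right ventricles of E12.5. Their mean was at least 6.73 there, against at most 6.3 in left ventricles of E12.5 and 6.04 at E14.5. The list of endocardium and cushions had at least 8.97 there, against at most 8.52 and 8.19. Whether these right ventricle samples held more tissue of that kind was not tested. Between the stages 4 of the 11 skin genes and 4 of the 10 liver genes rose with 0 falls (0 lower also at an unadjusted p under 0.05, limma), and 2 and 1 rose without left replicate 2. Their part in the results below was not tested beyond repeating each result without that array, and the counts also without all 3 arrays high in liver genes. In the first repeat the E14.5 value of replicate 2 was a right ventricle alone. Genes that differ between the ventricles can shift for that reason as well. In the repeat without the 3 arrays each E14.5 value came from a single ventricle. Xist, which is transcribed from the inactive X chromosome of females, read 6.01 in E14.5 right replicate 2 and 9.58 to 10.47 in the other E14.5 arrays, against 8.99 to 9.92 at E12.5.

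**Figure D1:**
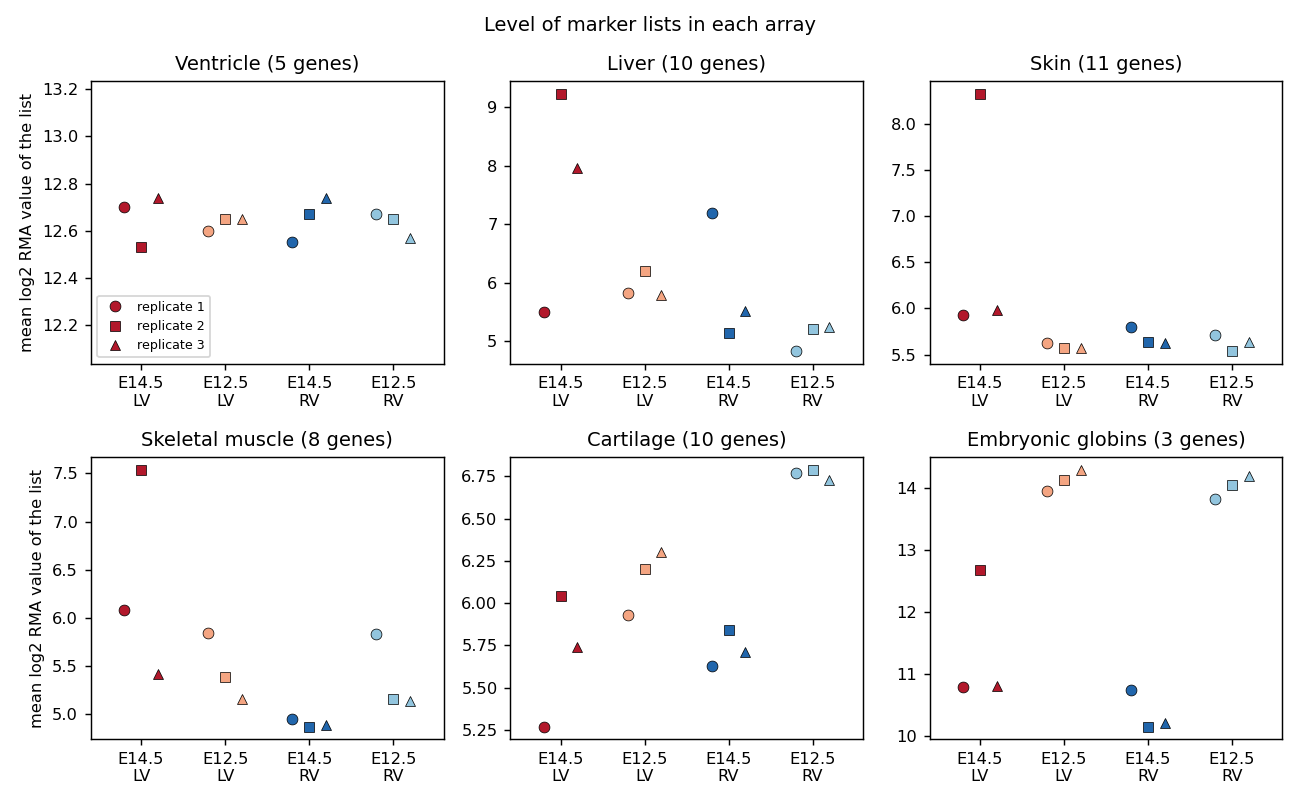
Mean log2 RMA value of 6 marker lists in each of the 12 arrays (vertical axis) by stage and ventricle (horizontal axis), with a symbol per replicate number. Ventricle markers lie between 12.53 and 12.74 everywhere, while liver, skin and skeletal muscle markers are highest in E14.5 left ventricle replicate 2, at 9.23, 8.33 and 7.54.

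Of 18193 genes, 2415 (13.3%) were called between the stages, 1307 higher at E14.5 (7.18% of all genes) and 1108 lower (6.09%). The median change of all genes was 0.013, and 188 calls were at least 2-fold, 133 higher and 55 lower. The 6 E14.5 arrays did not overlap the 6 E12.5 arrays for 1627 genes (8.94%), 1253 of which were called. Without E14.5 left replicate 2 the count was 3087 (17% of all genes), and 2212 of the 2415 calls were made again in the same direction, with 0 reversed in limma. Without the 3 arrays high in liver genes it was 2940, with 2068 calls in common. Leaving out both ventricles of one number lowered the count most for E14.5 replicate 1 (1344) and E12.5 replicate 2 (1417). With the gene's second brightest probe set, 34 of the named genes were no longer called and 6 more turned sign. Only genes with several probe sets, 9010 of the 18193, could change in this setting, since the others kept their single probe set. In a bulk sample, fewer cells of a type and less RNA per cell cannot be told apart.

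The plot of called genes per list shows which gene groups moved. Listed genes of fatty acid use, of the respiratory chain and of coronary vessels mostly stand on the side of higher values at E14.5. Embryonic globins, oncofetal genes, and genes of the endocardium and cushions stand on the side of lower values.

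**Figure D2:**
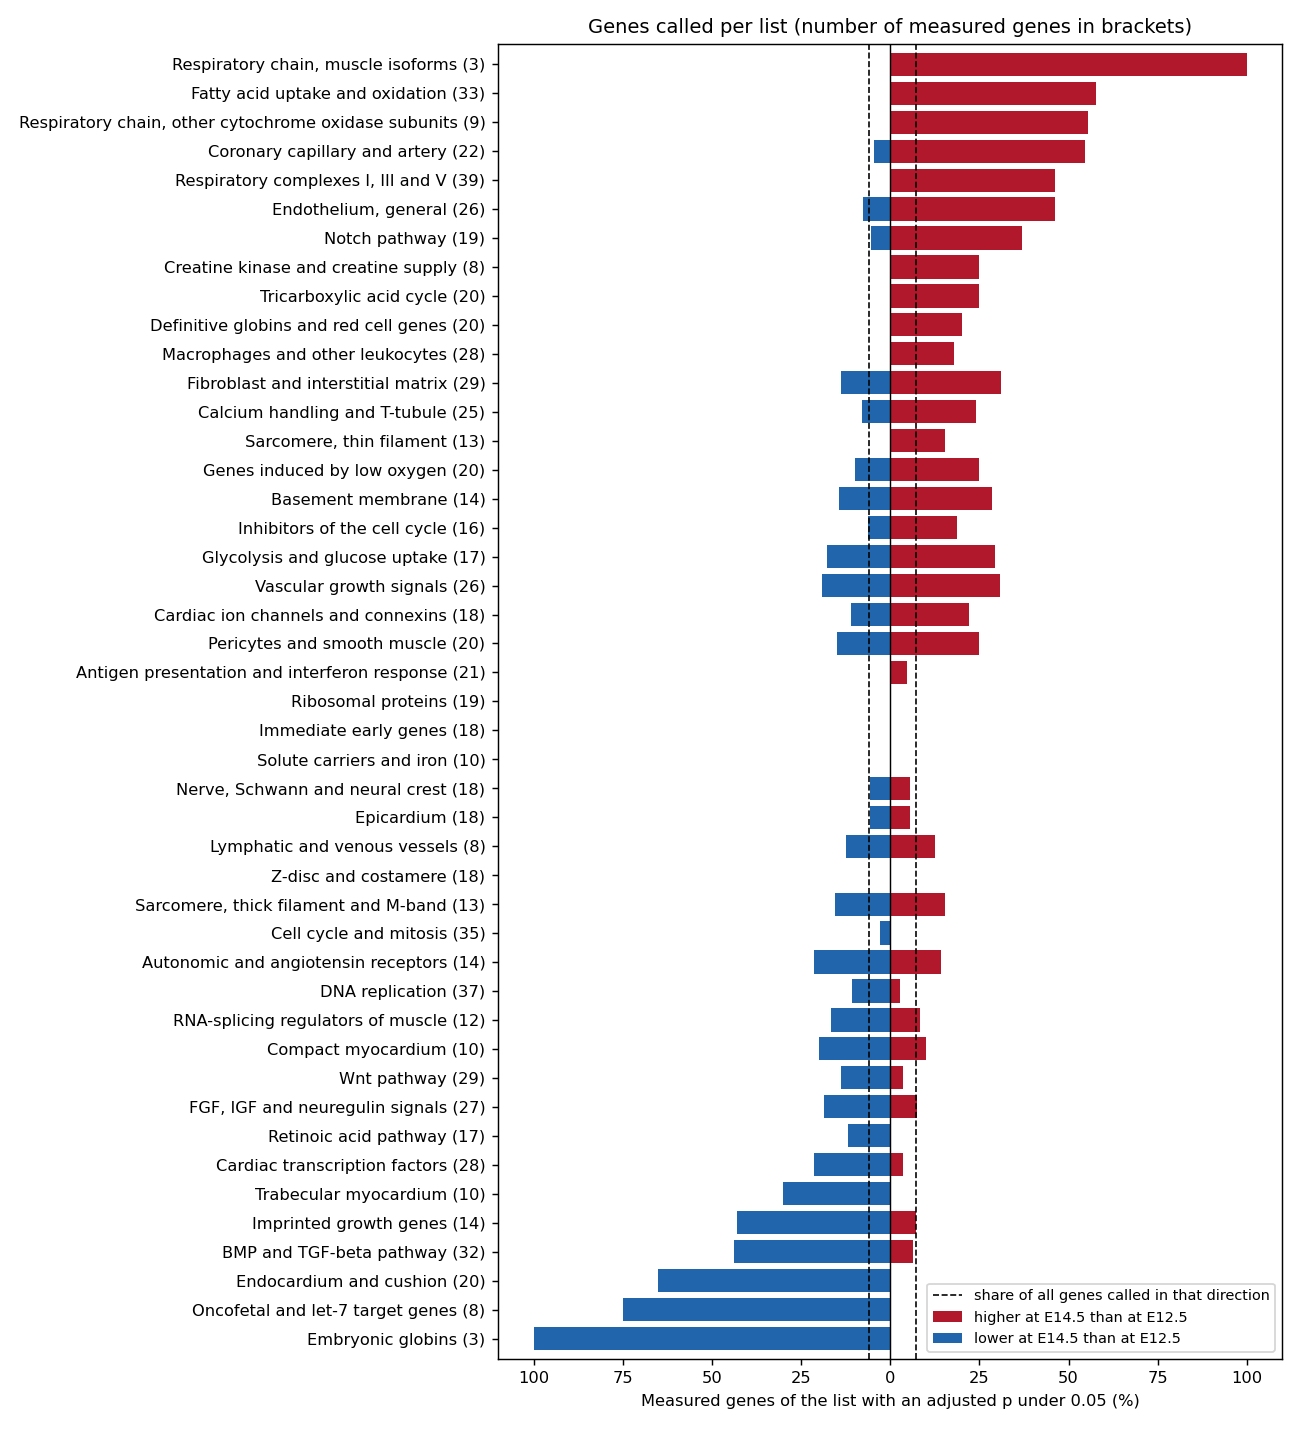
Share of the measured genes of each of 45 lists (rows) that was called higher at E14.5 than at E12.5 (right of 0, red) or lower (left of 0, blue), in percent. The dashed lines mark the shares of all genes called, 7.18% higher and 6.09% lower. All 3 muscle isoforms of cytochrome oxidase were higher and all 3 embryonic globins were lower.

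Several genes of muscle energy supply rose. Ckm, which encodes the muscle creatine kinase that buffers ATP, had the largest of the 10 rises named by rule, 3.38 ± 0.14 or 10.4-fold (adjusted p = 1.96e-13, limma). It read 12.66, 12.29 and 12.29 in left and 12.74, 12.80 and 12.98 in right ventricles at E14.5, against 8.73, 8.32 and 8.31 in left and 10.28, 9.79 and 10.03 in right ventricles at E12.5. The lowest E14.5 array (12.29) stood well above the highest E12.5 array (10.28). Ckmt2, the sarcomeric mitochondrial creatine kinase, had a difference of 0.29 ± 0.18 and was not called (adjusted p = 0.33, limma). Slc6a8, the creatine transporter, rose by 0.35 ± 0.10. Of 8 genes of creatine supply, Ckm and Slc6a8 were the 2 called.

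Of 33 measured genes of fatty acid uptake and oxidation, 19 rose and 0 fell (22 higher and 0 lower at an unadjusted p under 0.05, limma). Their median change was 0.32. Fabp4, a fatty acid carrier of capillary endothelium and fat cells, rose by 3.23 ± 0.67. It read 13.17, 12.64 and 12.94 in left and 12.79, 12.80 and 12.69 in right ventricles at E14.5, against 9.59, 8.61 and 9.15 in left and 10.45, 9.60 and 10.27 in right ventricles at E12.5, with no overlap. Gpihbp1, which holds lipoprotein lipase on the capillary wall, rose by 2.90 ± 0.20. Lpl, the lipase itself, had stage means of 13.01 ± 0.05 at E14.5 and 13.03 ± 0.08 at E12.5, a difference of -0.03 ± 0.10 that was not called. Cd36, the fatty acid translocase, rose by 1.36 ± 0.15, with 10.05, 9.93 and 9.99 in left and 10.22, 10.21 and 10.14 in right ventricles at E14.5, against 8.55, 8.70 and 8.46 in left and 8.86, 9.02 and 8.80 in right ventricles at E12.5. Ppara, a nuclear receptor that controls genes of fatty acid oxidation, rose by 0.80 ± 0.13. The muscle carrier gene Fabp3 (0.65 ± 0.34) and the coactivator gene Ppargc1a (0.33 ± 0.15) were not called, although in each the 6 E14.5 arrays were all above the 6 E12.5 arrays. The standard error pools the spread of all stages in the fit. Fabp3 had an SD of 1.38 at E7.5, against 0.07 at E14.5 and 0.09 at E12.5.

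All 3 muscle isoforms of cytochrome c oxidase, the last complex of the respiratory chain, rose. Cox8b read 11.80, 11.34 and 11.54 in left and 12.25, 11.88 and 12.05 in right ventricles at E14.5, against 9.93, 9.88 and 10.00 in left and 9.71, 9.60 and 10.15 in right ventricles at E12.5, a rise of 1.93 ± 0.16 (adjusted p = 2.18e-08, limma). Cox7a1 rose by 0.89 ± 0.15 and Cox6a2 by 0.68 ± 0.08, both without overlap between the 6 arrays of each stage. Among 9 other subunits of that complex 5 rose, and 18 of 39 genes of complexes I, III and V rose, with 0 falls in either list (0 and 1 lower at an unadjusted p under 0.05, limma). Those changes were small, with medians of 0.17 and 0.20. Atp5e, of ATP synthase, rose by 0.52 ± 0.13, and Ndufa8, of complex I, by 0.40 ± 0.07. Cox7c rose by 0.96 ± 0.23, on a probe set that read only 4.42 to 6.31 in the 12 arrays. In the tricarboxylic acid cycle 5 of 20 genes rose, with 0 falls at either threshold, among them the succinate dehydrogenase genes Sdhd (0.27 ± 0.07), Sdhb (0.23 ± 0.05) and Sdhc (0.21 ± 0.07).

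Of 17 genes of glycolysis and glucose uptake, 5 rose and 3 fell, with a median of -0.01. The glucose transporter genes moved in opposite directions. Slc2a4, the insulin-responsive transporter of muscle, rose by 0.60 ± 0.12, and Slc2a1, the transporter of most embryonic cells, fell, with a difference of -0.53 ± 0.10, -0.19 in left and -0.86 in right ventricles. Slc2a4 read 8.28, 8.29 and 8.27 in left and 8.37, 8.27 and 8.34 in right ventricles at E14.5, against 7.85, 7.73 and 7.66 in left and 7.62, 7.80 and 7.58 in right ventricles at E12.5. Slc2a1 read 11.58, 11.71 and 11.72 in left and 11.56, 11.67 and 11.66 in right ventricles at E14.5, against 11.75, 11.97 and 11.86 in left and 12.45, 12.58 and 12.46 in right ventricles at E12.5. Both genes separated the stages completely, though in left ventricles Slc2a1 did so narrowly, with a highest value of 11.72 at E14.5 and a lowest of 11.75 at E12.5. Aldoc, an aldolase isoform, rose by 0.78 ± 0.10, and Eno3, the muscle enolase, by 0.43 ± 0.11. Among 20 genes that low oxygen induces in many cells, 5 rose and 2 fell, and 8 rose without the 3 arrays high in liver genes. Mb, which encodes the oxygen store myoglobin, rose by 1.3 ± 0.14, a call that its second probe set did not give (0.09), and Ndrg1, Egln3 and Ankrd37 by 1.29 ± 0.26, 0.91 ± 0.11 and 0.87 ± 0.20.

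Most listed genes of the contractile apparatus, as of all genes, did not pass the test. Myom2, which encodes an M-band protein that crosslinks thick filaments, rose by 3.03 ± 0.21, or 8.15-fold. It read 8.55, 8.63 and 8.14 in left and 9.07, 9.14 and 9.19 in right ventricles at E14.5, against 5.99, 5.36 and 4.82 in left and 6.47, 6.16 and 5.75 in right ventricles at E12.5. The main ventricular genes differed little, but they read near the highest value on any array, 15.2, where a difference can be understated. Myh7, the slow myosin heavy chain, had stage means of 14.42 ± 0.13 at E14.5 and 14.44 ± 0.11 at E12.5, Myl2, the ventricular regulatory light chain, 14.93 ± 0.03 at E14.5 and 14.91 ± 0.01 at E12.5, and Tnni1, the slow troponin I of the fetal heart, 14.35 ± 0.02 at E14.5 and 14.21 ± 0.03 at E12.5. Tnni3, the cardiac troponin I that replaces it, rose by 0.57 ± 0.10. It read 13.54, 13.57 and 13.59 in left and 13.61, 13.58 and 13.66 in right ventricles at E14.5, against 13.18, 13.21 and 13.06 in left and 12.87, 12.95 and 12.84 in right ventricles at E12.5, a small shift without overlap. Myh6, the fast myosin heavy chain, fell, with a difference of -0.52 ± 0.12 (-0.22 and not called on its second probe set), and so did Mybphl (-1.35 ± 0.30), a relative of myosin binding protein C found in atrial muscle. Of 13 thick filament genes 2 rose and 2 fell, so that 30.8% were called, against 13.3% of all genes. Of 13 thin filament genes 2 rose and 0 fell (1 lower at an unadjusted p under 0.05, limma), with 15.4% called. Of 18 Z-disc genes 0 were called (1 higher and 0 lower at an unadjusted p under 0.05, limma), and 1 rose without left replicate 2.

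Of 25 genes of calcium handling 6 rose and 2 fell, and 1 fell without the 3 arrays high in liver genes. Casq2, the calcium-binding protein of the sarcoplasmic reticulum, rose by 1.5 ± 0.11, with 12.68, 12.44 and 12.58 in left and 12.55, 12.58 and 12.54 in right ventricles at E14.5, against 11.33, 11.45 and 11.40 in left and 10.68, 10.81 and 10.75 in right ventricles at E12.5. S100a1, a calcium sensor of muscle, rose by 1.05 ± 0.23, and Cav3, a caveolin of muscle membranes, by 0.74 ± 0.15. Sln, sarcolipin, an inhibitor of the calcium pump that marks atrial muscle, rose by 2.11 ± 0.53, but its arrays were spread widely. It read 6.54, 9.06 and 7.01 in left and 9.89, 9.16 and 9.09 in right ventricles at E14.5, against 5.94, 5.85 and 5.17 in left and 7.06, 7.12 and 6.94 in right ventricles at E12.5, so that the lowest E14.5 array (6.54) lay below all 3 right ventricles of E12.5, and a dimmer probe set of the gene gave -0.09. Dhrs7c, a dehydrogenase of the sarcoplasmic reticulum, was among the 10 largest rises, at 2.38 ± 0.19. Among 18 genes of ion channels and connexins 4 rose and 2 fell. Kcnj8, a subunit of the ATP-sensitive channel that also marks pericytes, rose by 1.55 ± 0.19, Kcne1 and Kcnq1, subunits of the slow delayed rectifier, by 1.12 ± 0.28 and 0.85 ± 0.16, and Kcnip2, a subunit of the transient outward channel, by 0.80 ± 0.12. A dimmer probe set of Kcnip2 gave -0.01. The connexin gene Gja5 (-0.20 ± 0.14) was not called.

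Genes of 2 layers of the early myocardium were looked at separately. Of 10 genes of the trabeculae 3 fell and 0 rose (5 lower and 0 higher at an unadjusted p under 0.05, limma), and of 10 genes of the compact wall 1 rose and 2 fell, with 5 falls without left replicate 2. Cited1, a transcriptional coregulator, fell, with a difference of -1.07 ± 0.18, and read 12.26, 12.17 and 12.40 in left and 11.89, 11.94 and 12.06 in right ventricles at E14.5, against 12.77 to 13.59 at E12.5. Sema3a, a guidance cue, had a difference of -0.79 ± 0.16, and Nrg1, the endocardial growth factor for trabecular muscle, -0.35 ± 0.11. The Nrg1 probe set read only 4.17 to 4.92 in the 12 arrays, with overlap between the stages. Its stage means were 4.18 to 5.41 over the whole series, stem cells included, so this fall is weak evidence. Of the trabecular ligand genes, Nppa (-0.02 ± 0.36), Nppb (-0.35 ± 0.23) and Bmp10 (-0.24 ± 0.14) were not called. The Bmp10 probe set had stage means of only 5.58 to 6.57 over the whole series, stem cells included, which limits what it can show. In the compact list Hey2 (0.03 ± 0.10), Tbx20 (-0.12 ± 0.12) and Mycn (-0.41 ± 0.15) were not called, and Tnc, a matrix glycoprotein, rose by 0.96 ± 0.16 (0.08 and not called on its second probe set), with ventricles that differed, as given below. Of 28 cardiac transcription factors 1 rose and 6 fell, with a median of -0.24. Gata5, an endocardial factor, had the largest of these falls (-1.3 ± 0.14), followed by Prox1 (-0.91 ± 0.19) and Irx5 (-0.63 ± 0.19). Gata4 fell, at -0.45 ± 0.14, with 7.34 to 7.91 at E14.5 and 8.03 to 8.12 at E12.5, but was not called on its second probe set (-0.23), while Nkx2-5 (-0.26 ± 0.13) and Irx4 (-0.04 ± 0.29) were not called.

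**Figure D3:**
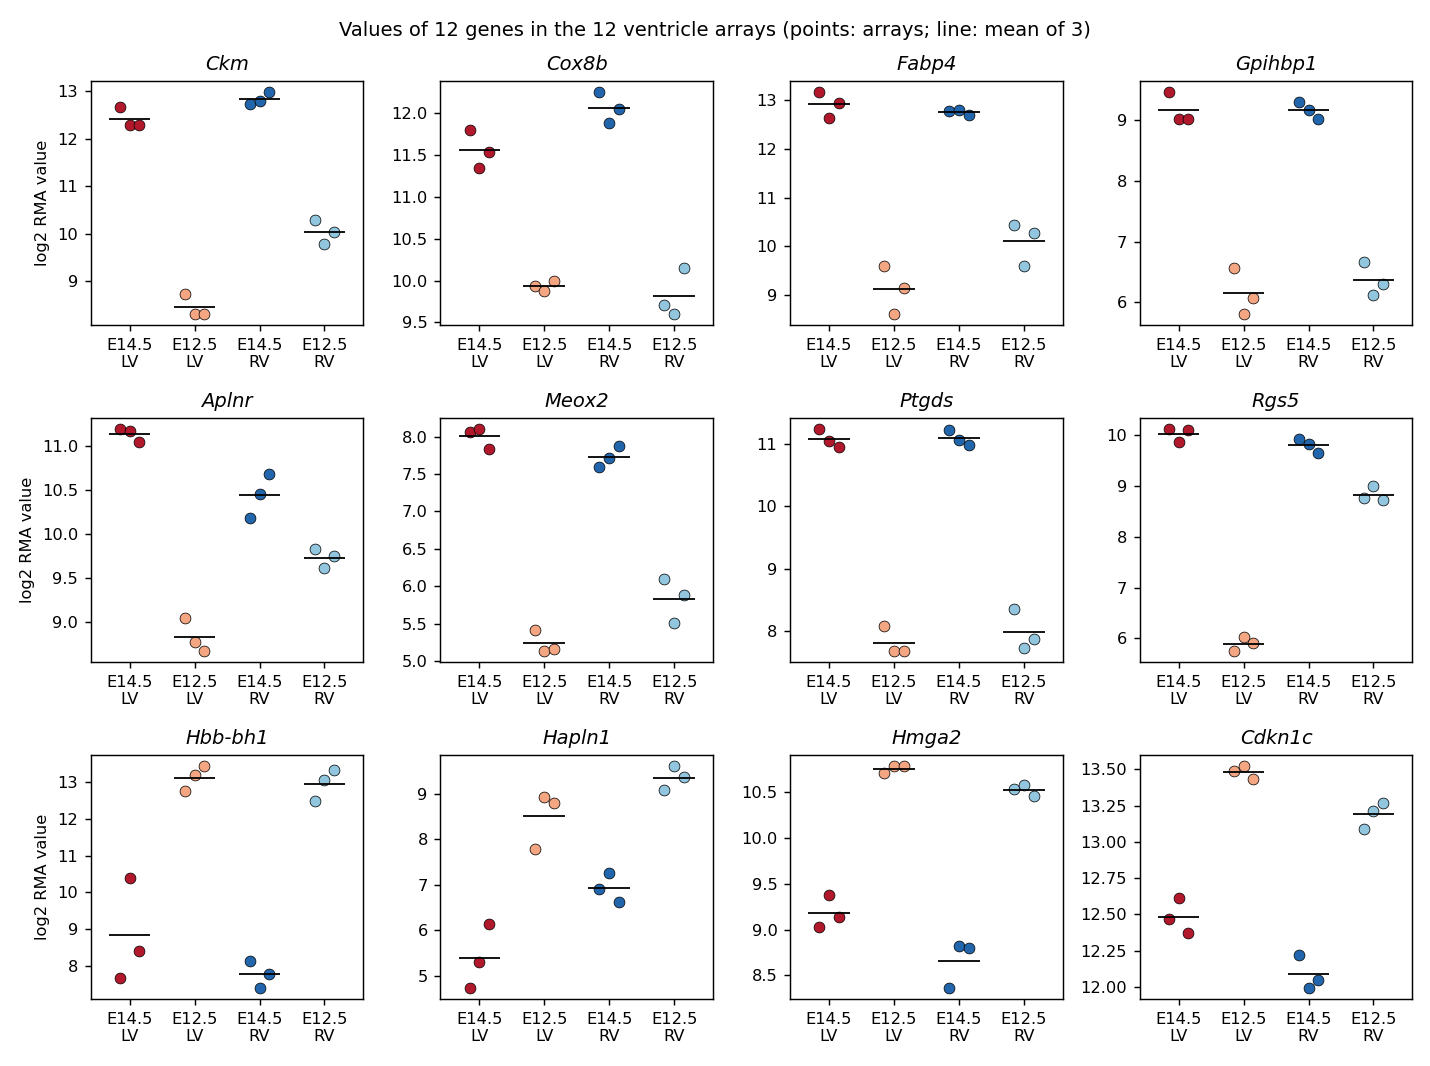
Log2 RMA values of 12 genes (panels) in each array (points), by stage and ventricle, with the mean of 3 arrays as a line. In the upper and middle rows the E14.5 points lie above the E12.5 points in both ventricles, and in the lower row below them.

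All 3 measured embryonic globin genes fell, and Hbb-bh1 and Hba-x had the 2 largest falls named by rule. Hbb-bh1 and Hbb-y encode embryonic beta-type globins and Hba-x the embryonic alpha-type globin of yolk sac red cells. Promoter sequences of RefSeq were available for 2 of the 3, Hba-x and Hbb-y. They are shown because these genes moved together, as the 250 bases before the start of the gene, read 5′ to 3′ on the gene's strand (mouse build GRCm38.p6). Capitals mark GATAA, which erythroid GATA factors bind, CACCC, which Klf1 binds, CCAAT and TATAAA, searched on both strands.
Hba-x, chr11:32276350-32276599, plus strand: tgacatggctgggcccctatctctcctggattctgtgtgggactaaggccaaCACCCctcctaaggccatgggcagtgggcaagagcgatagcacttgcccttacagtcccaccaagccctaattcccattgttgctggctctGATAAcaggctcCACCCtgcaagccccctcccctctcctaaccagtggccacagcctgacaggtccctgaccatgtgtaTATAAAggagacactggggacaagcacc
Hbb-y, chr7:103853208-103853457, minus strand: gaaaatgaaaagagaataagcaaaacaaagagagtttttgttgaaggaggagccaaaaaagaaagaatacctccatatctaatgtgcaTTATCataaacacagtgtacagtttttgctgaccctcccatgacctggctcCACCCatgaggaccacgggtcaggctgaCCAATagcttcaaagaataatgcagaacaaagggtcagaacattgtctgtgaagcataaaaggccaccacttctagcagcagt
Both windows held GATAA once, 107 bases before the start in Hba-x and 162 bases before it in Hbb-y. Hba-x held CACCC at 198 and 95 bases and TATAAA at 28 bases before the start. Hbb-y held CACCC at 111 bases and CCAAT at 83 bases before the start. Of 32851 mouse promoter windows of this length, 22.6% held GATAA, 52% CACCC, 33.8% CCAAT and 12.4% TATAAA on either strand, so a match is no more than a description.

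Hbb-bh1 read 7.67, 10.38 and 8.41 in left and 8.13, 7.38 and 7.76 in right ventricles at E14.5, against 12.75, 13.19 and 13.43 in left and 12.49, 13.07 and 13.32 in right ventricles at E12.5. The difference was -4.75 ± 0.85, 27-fold lower at E14.5 (adjusted p = 5.62e-04, limma), and -5.25 without left replicate 2, the highest E14.5 array. Hba-x read 11.20, 13.12 and 10.73 in left and 10.69, 10.19 and 10.09 in right ventricles at E14.5, against 14.13, 14.22 and 14.33 in left and 14.05, 14.14 and 14.21 in right ventricles at E12.5, a difference of -3.18 ± 0.47. Hbb-y, at 13.53, 14.53 and 13.33 in left and 13.43, 12.90 and 12.80 in right ventricles at E14.5, against 14.94 to 15.14 at E12.5, had a difference of -1.59 ± 0.22. Its second probe set gave -0.70 and was not called. In all 3 genes the stages did not overlap, and left replicate 2, the array with the highest liver and skin markers, had the highest E14.5 value. Of 20 genes of definitive red cells 4 rose and 0 fell (8 higher and 1 lower at an unadjusted p under 0.05, limma), but 2 rose and 3 fell without left replicate 2, and 2 rose and 4 fell without the 3 arrays high in liver genes. With all arrays 20% of this list was called, against 13.3% of all genes. Hbb-b2, an adult beta globin gene, rose by 1.3 ± 0.37. It read 9.97, 11.41 and 10.48 in left and 10.39, 9.71 and 9.19 in right ventricles at E14.5, against 8.79, 9.0 and 8.67 in left and 9.19, 8.81 and 8.89 in right ventricles at E12.5, and was not called without left replicate 2 (adjusted p = 0.0583, limma). A dimmer probe set of Hbb-b2, whose sequence is close to that of other beta globins, gave -0.40. Hba-a1, an adult alpha globin gene, was not called (-0.0007 ± 0.12), on a probe set that read only 3.48 to 4.04 in the 12 arrays. That level limits what it can show. Hemgn, a nuclear protein of blood precursors, read 10.07 in left replicate 2 and 6.35 to 8.27 in the other E14.5 arrays, against 5.62 to 7.62 at E12.5. Its rise of 1.44 ± 0.27 was also lost without that array (adjusted p = 0.0799, limma). Slc25a37, the iron importer of mitochondria, rose by 1.2 ± 0.22 with it and 0.66 without it.

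Most of the listed coronary vessel genes rose. Of 22 genes of coronary capillaries and arteries 12 rose and 1 fell, with a median of 0.63, and of 26 general endothelial genes 12 rose and 2 fell, with a median of 0.26. Without left replicate 2 the coronary genes had 12 rises and 3 falls, and the general endothelial genes 10 and 2. Fabp4, Gpihbp1 and Cd36 stand in both the coronary and the fatty acid list. Meox2, a homeobox factor of heart endothelium, read 8.07, 8.1 and 7.84 in left and 7.60, 7.72 and 7.87 in right ventricles at E14.5, against 5.41, 5.13 and 5.16 in left and 6.10, 5.51 and 5.88 in right ventricles at E12.5, a rise of 2.33 ± 0.18. Cav1, caveolin-1 of capillary cells, rose by 1.68 ± 0.20, and Cldn5, a tight junction protein, by 1.63 ± 0.19. Cldn5 read 9.70, 9.14 and 9.36 in left and 9.40, 9.24 and 9.18 in right ventricles at E14.5, against 7.48, 7.58 and 7.29 in left and 8.14, 7.80 and 7.96 in right ventricles at E12.5. Sox17 and Sox18, transcription factors of vessel cells, rose by 1.54 ± 0.11 and 0.96 ± 0.15. The apelin receptor gene Aplnr, a marker of the sprouting coronary plexus, rose by 1.5 ± 0.16 and read 11.19, 11.17 and 11.05 in left and 10.18, 10.46 and 10.68 in right ventricles at E14.5, against 9.05, 8.77 and 8.67 in left and 9.83, 9.62 and 9.75 in right ventricles at E12.5. Apela, which encodes a peptide ligand of that receptor, was among the 10 largest falls, at -1.75 ± 0.28 (-0.48 and not called on its second probe set), with 7.62, 7.22 and 7.83 in left and 8.31, 7.54 and 7.81 in right ventricles at E14.5, against 9.36, 9.46 and 9.95 in left and 9.07, 9.06 and 9.90 in right ventricles at E12.5. Pecam1 (0.19 ± 0.19) and Cdh5 (0.27 ± 0.31), which encode junction proteins of all endothelium, were not called. The means of Aplnr and Sox17 in hearts of E8.5 were near those of E14.5, as given below. With all 12 arrays the called fall of the coronary list was that of Car4, the membrane carbonic anhydrase of capillaries (-1.62 ± 0.20). Car4 read 3.85 to 4.06 at E14.5 and 5.30 to 6.03 at E12.5.

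Of 19 genes of the Notch pathway, which patterns arteries, 7 rose and 1 fell, and 2 fell without left replicate 2. Nrarp, a feedback regulator, rose by 1.12 ± 0.09, the target genes Heyl and Hey1 by 0.82 ± 0.14 and 0.76 ± 0.09, and Mfng, a glycosyltransferase that modifies Notch receptors, by 0.71 ± 0.11. Hey1 read 8.49, 8.21 and 8.15 in left and 8.22, 8.32 and 8.23 in right ventricles at E14.5, against 7.47, 7.15 and 7.37 in left and 7.59, 7.78 and 7.74 in right ventricles at E12.5. Heyl differed by 1.25 in left and 0.39 in right ventricles, and the right was not called alone (adjusted p = 0.0982, limma). Among 26 vascular growth signals 8 rose and 5 fell. Cxcr4, the chemokine receptor of growing arteries, rose by 1.27 ± 0.20, and Angpt1, the myocardial ligand of the receptor Tek, fell, with a difference of -0.91 ± 0.14. Nrp2, a receptor of lymphatic and venous cells, had 0.36 ± 0.11, with 0.81 in left and -0.10 in right ventricles, a call that was lost without left replicate 2 (adjusted p = 0.144, limma). That array read 8.44, below the other left ventricles of E14.5 (9.01 and 8.54), against 7.96 to 8.36 in the right ones. Acvrl1, the endothelial BMP receptor, rose by 0.82 ± 0.15.

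Pericytes are the mural cells of capillaries. Of 20 genes of pericytes and smooth muscle 5 rose and 3 fell. Rgs5, a regulator of G protein signals in pericytes, rose by 2.55 ± 0.12, and Kcnj8 rose as given above. Tagln, an early smooth muscle gene that the young heart muscle also expresses, fell, with a difference of -1.27 ± 0.16, while Acta2 (-0.07 ± 0.17), Myh11 (0.20 ± 0.20) and Pdgfrb (0.14 ± 0.14) were not called. Vtn, which liver also makes, read 8.13 in left replicate 2, and its rise of 1.19 ± 0.33 was lost without that array (adjusted p = 0.205, limma). Aoc3, a vascular amine oxidase of smooth muscle and fat cells, rose by 3.05 ± 0.17, or 8.27-fold, with 8.62, 8.23 and 8.21 in left and 7.1, 7.50 and 7.43 in right ventricles at E14.5, against 4.13, 4.65 and 4.67 in left and 5.32, 5.29 and 4.73 in right ventricles at E12.5. Ptgds, a prostaglandin D synthase and lipid carrier, rose by 3.18 ± 0.19. It read 11.23, 11.04 and 10.94 in left and 11.22, 11.06 and 10.98 in right ventricles at E14.5, against 8.08, 7.68 and 7.68 in left and 8.36, 7.73 and 7.88 in right ventricles at E12.5, a change of 3.26 in left and 3.10 in right ventricles.

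Most listed genes of the endocardium and cushions fell. Of 20 such genes 13 fell and 0 rose (14 lower and 0 higher at an unadjusted p under 0.05, limma), with a median of -0.72, and 13 fell without left replicate 2. Hapln1, which links hyaluronan to proteoglycans in the cardiac jelly, had a difference of -2.77 ± 0.26, 6.81-fold lower at E14.5 (adjusted p = 1.80e-07, limma). It read 4.72, 5.29 and 6.14 in left and 6.90, 7.26 and 6.62 in right ventricles at E14.5, against 7.78, 8.93 and 8.79 in left and 9.09, 9.60 and 9.37 in right ventricles at E12.5. Has2, the enzyme that makes hyaluronan, had a difference of -0.94 ± 0.16, and Vcan, the proteoglycan versican, -0.81 ± 0.20. Vcan read 9.86, 9.96 and 10.15 in left and 9.65, 9.88 and 9.95 in right ventricles at E14.5, against 10.30, 10.44 and 10.52 in left and 11.18, 11.07 and 10.83 in right ventricles at E12.5. Twist1, a factor of cushion mesenchyme (-0.98 ± 0.19), Adgrg6, an endocardial adhesion receptor (-1.06 ± 0.17), and Npr3, the clearance receptor of natriuretic peptides (-0.72 ± 0.16), also fell. Edil3, a matrix protein that integrins bind, was among the 10 largest falls (-1.67 ± 0.19). Of 10 genes of cartilage, several of which the cushions share, 5 fell and 0 rose at either threshold. Their median change was -0.16 in left and -0.96 in right ventricles. Both lists were highest in the right ventricles of E12.5, as given above. Col9a1, a collagen of cartilage and valves, had -1.93 ± 0.24. It read 5.31, 7.43 and 7.05 in left and 6.81, 7.47 and 6.59 in right ventricles at E14.5, against 6.78, 7.63 and 7.86 in left and 10.01, 9.96 and 10.00 in right ventricles at E12.5, with overlap between the stages in the left ventricle.

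Of 32 genes of BMP and TGF-beta signalling, which drives cushion formation, 2 rose and 14 fell, with a median of -0.25. Among the ligands, Bmp5 had a difference of -0.80 ± 0.15 (-0.42 and not called on its second probe set) and Tgfb2 of -0.75 ± 0.16. Tgfb2 read 9.54, 9.39 and 9.83 in left and 9.20, 9.37 and 9.37 in right ventricles at E14.5, against 10.09, 9.97 and 9.98 in left and 10.56, 10.28 and 10.31 in right ventricles at E12.5. Fst, an activin antagonist, had -0.81 ± 0.19, and Id2, a target gene of BMP, -0.88 ± 0.21. Id2 read 10.27 to 11.44 at E14.5 and 11.45 to 12.13 at E12.5. Of 29 Wnt genes 1 rose and 4 fell, and 9 fell without left replicate 2. With all arrays 17.2% of the Wnt list was called, against 13.3% of all genes. In that repeat 17% of all genes were called. Wif1, a secreted Wnt inhibitor, rose by 1.94 ± 0.27, Wnt5a, a ligand of the non-canonical branch, had a difference of -1.01 ± 0.12, Lef1, a nuclear factor of the canonical branch, -0.75 ± 0.17, and Rspo3, a secreted enhancer of Wnt signals, -0.73 ± 0.16. The call of Rspo3 was lost without left replicate 2 (adjusted p = 0.068, limma). Wif1 read 6.70, 6.52 and 6.12 in left and 8.0, 8.25 and 8.47 in right ventricles at E14.5, against 4.46, 4.6 and 4.44 in left and 6.48, 6.27 and 6.18 in right ventricles at E12.5, higher in right than in left ventricles at each stage.

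Of 29 genes of fibroblasts and interstitial matrix 9 rose and 4 fell, with a median of 0.41. The count of rises was 7 without left replicate 2 and 5 without the 3 arrays high in liver genes. Dpt, dermatopontin, a small matrix protein, was among the 10 largest rises, at 2.51 ± 0.23, and read 8.98, 8.63 and 8.83 in left and 8.99, 9.11 and 8.65 in right ventricles at E14.5, against 5.31, 6.12 and 6.21 in left and 6.88, 7.03 and 6.59 in right ventricles at E12.5. Dcn, decorin, which binds collagen fibrils, rose by 1.22 ± 0.29, with 12.46, 12.33 and 12.45 in left and 11.98, 11.62 and 11.71 in right ventricles at E14.5, against 11.04, 10.81 and 10.87 in left and 10.89, 10.55 and 11.06 in right ventricles at E12.5. Its second probe set gave 0.25 and was not called. Col14a1 rose by 1.34 ± 0.35, but was not called without left replicate 2 (adjusted p = 0.0623, limma). That array read 9.94, between the other left ventricles of E14.5 (10.23 and 9.76), while the right ones read 8.12 to 8.38. Its loss thus also removes a left ventricle from the mean. Of 14 genes of the basement membrane 4 rose and 2 fell. Sparcl1, a matrix protein of vessel walls, rose by 2.34 ± 0.20, Lama2, the laminin chain around muscle cells, by 0.82 ± 0.10, and Col15a1 by 0.55 ± 0.13, while Nid2, nidogen-2, fell, with a difference of -0.52 ± 0.13. The change of Nid2 was 0.03 in left ventricles (adjusted p = 0.951, limma) and -1.07 in right ventricles, and differed between them (adjusted p = 0.0129, limma). Of 18 epicardial genes 1 rose (Msln, a surface protein of mesothelium, 1.00 ± 0.22) and 1 fell (Podxl, -0.39 ± 0.10), with 4 falls without left replicate 2 and 7 without the 3 arrays high in liver genes. The epicardial factors Wt1 (-0.30 ± 0.26) and Tbx18 (-0.53 ± 0.21) and the retinoic acid enzyme gene Aldh1a2 (-0.58 ± 0.23) were not called. Of 17 retinoic acid genes 2 fell and 0 rose (5 lower and 0 higher at an unadjusted p under 0.05, limma), the binding protein genes Crabp1 (-1.05 ± 0.23) and Crabp2 (-0.73 ± 0.23), and 4 fell without the 3 arrays high in liver genes. Crabp1 differed by -0.13 in left and -1.98 in right ventricles. The calls made up 11.1% of the epicardial and 11.8% of the retinoic acid list, against 13.3% of all genes.

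Most listed genes that mark early embryonic growth fell, and those of cell division were called at a share near or below that of all genes. Of 8 oncofetal genes, several of them targets of the let-7 miRNAs, 6 fell and 0 rose at either threshold, with a median of -0.67. Hmga2, a chromatin protein of growing embryonic tissue, had a difference of -1.72 ± 0.15 (adjusted p = 3.77e-08, limma), and read 9.03, 9.38 and 9.14 in left and 8.36, 8.82 and 8.80 in right ventricles at E14.5, against 10.71, 10.78 and 10.78 in left and 10.53, 10.58 and 10.46 in right ventricles at E12.5. Trim71, a let-7 target that regulates RNA in early embryos, had -1.45 ± 0.10, Dusp9, a phosphatase of growth signalling, -1.03 ± 0.18, and Arid3b, a DNA-binding protein, -0.71 ± 0.14. The RNA-binding genes Igf2bp1 (-0.62 ± 0.13) and Igf2bp3 (-0.27 ± 0.07) also fell, and Lin28b read 2.85 to 3.09 in all 12 arrays. The Lin28b probe set had stage means of only 2.70 to 3.29 over the whole series, stem cells included, which limits what it can show. Of 14 imprinted genes 1 rose and 6 fell. Cdkn1c, the maternally expressed inhibitor of cyclin-dependent kinases, had -1.05 ± 0.10, with 12.47, 12.61 and 12.37 in left and 12.22, 11.99 and 12.05 in right ventricles at E14.5, against 13.49, 13.52 and 13.43 in left and 13.09, 13.21 and 13.27 in right ventricles at E12.5. Nnat (-1.44 ± 0.20) and Peg3 (-0.57 ± 0.19), both expressed from the paternal copy, fell, and the maternal long RNA Meg3 rose by 0.84 ± 0.21.

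Of 35 genes of the cell cycle and mitosis 0 rose and 1 fell (0 higher and 2 lower at an unadjusted p under 0.05, limma), the cyclin gene Ccnd2 (-0.51 ± 0.13). Without left replicate 2 the counts were 1 and 3. With all arrays 2.86% of this list was called, against 13.3% of all genes. Mki67, the proliferation marker, had 0.09 ± 0.14 and Cdk1, the mitotic kinase, -0.05 ± 0.10. Mki67 read 10.72, 11.12 and 10.87 in left and 9.68, 9.87 and 9.95 in right ventricles at E14.5, against 10.40, 10.35 and 10.28 in left and 10.17, 10.37 and 10.09 in right ventricles at E12.5, a change of 0.56 in left and -0.38 in right ventricles whose difference did not pass the test (adjusted p = 0.0527, limma). Of 37 genes of DNA replication 1 rose (Tk1, thymidine kinase, 0.28 ± 0.08) and 4 fell, and 2 rose and 9 fell without left replicate 2. With all arrays 13.5% of the replication list was called, near the share of all genes. Mcm3 and Mcm4, of the replicative helicase, had -0.40 ± 0.09 and -0.30 ± 0.09, and Tyms, thymidylate synthase, -0.45 ± 0.12, on a probe set that read 3.71 to 4.81, while its second probe set gave 0.33. Of 16 inhibitors of the cell cycle 3 rose and 1 fell, with rises of 0.93 ± 0.16 for Cdkn2c and 0.48 ± 0.12 for Cdkn1a, and Cdkn1c as the fall, and 2 fell without left replicate 2. Of 27 genes of FGF, IGF and neuregulin signals 2 rose and 5 fell, and 1 rose and 8 fell without left replicate 2. Among the binding proteins of insulin-like growth factors, Igfbp3 rose by 1.42 ± 0.34, and Igfbp5 and Igfbp2 had -0.69 ± 0.16 and -0.61 ± 0.19. Igf2r, the receptor that clears IGF2, had -0.52 ± 0.16.

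Of 28 leukocyte genes 5 rose and 0 fell (8 higher and 2 lower at an unadjusted p under 0.05, limma), and 3 rose and 1 fell without left replicate 2. With all arrays 17.9% of the leukocyte list was called, against 13.3% of all genes. Ms4a7, a macrophage gene, rose by 0.99 ± 0.17, with 6.21 to 6.81 at E14.5 and 5.10 to 5.93 at E12.5. C1qa, a complement gene of macrophages, rose by 0.50 ± 0.16, and was not called without left replicate 2 (adjusted p = 0.0735, limma). The neutrophil genes S100a9 (1.48 ± 0.32) and Mpo (0.58 ± 0.19) were highest in left replicate 2, at 8.65 and 6.46, and Mpo was not called without that array (adjusted p = 0.394, limma). Of 18 genes of nerves and neural crest 1 rose and 1 fell, and 3 fell without left replicate 2. The rise was that of Fabp7, a fatty acid carrier of glia that other cells also make, at 2.58 ± 0.24, with 8.65, 8.58 and 8.80 in left and 8.83, 8.61 and 8.43 in right ventricles at E14.5, against 5.90, 6.58 and 6.30 in left and 5.79, 5.86 and 5.99 in right ventricles at E12.5. Gap43, a growth cone protein, had -0.70 ± 0.11. The calls made up 11.1% of the nerve and neural crest list, against 13.3% of all genes. St8sia1, a ganglioside synthase, and Gprin3, a partner of G proteins, were among the 10 largest falls, with -1.76 ± 0.17 and -1.75 ± 0.14. Of 14 receptors for autonomic and peptide hormones 2 rose and 3 fell (1 rose without left replicate 2), with 0.52 ± 0.14 for the angiotensin receptor gene Agtr1a and -0.80 ± 0.24 for the endothelin receptor gene Ednrb. Of 12 splicing regulators 1 rose, Rbm20, which acts on titin (0.55 ± 0.13), and 2 fell, Rbfox2 (-0.41 ± 0.10) and Ptbp1 (-0.32 ± 0.10). The change of Ptbp1 was 0.11 in left and -0.75 in right ventricles (adjusted p of the difference = 0.0149, limma), and its second probe set gave 0.02. None of 18 immediate early genes or 19 ribosomal protein genes was called (2 and 1 higher, 1 and 0 lower at an unadjusted p under 0.05, limma), and 1 of each list rose without left replicate 2.

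Whether the change between the stages differed between the ventricles was tested in the fit of all 45 arrays. The test called 261 genes (1.43%), of which 202 had a higher change in the left ventricle and 59 a lower one. The count depended on single arrays, with 118 to 521 calls when each of the 12 was left out in turn. Each ventricle taken alone had 1436 called genes in the left and 3072 in the right, 700 of them called in both in the same direction and 11 in opposite directions. Rgs5 differed by 3.15 ± 0.18 (adjusted p = 2.31e-14, limma). It read 10.11, 9.85 and 10.09 in left ventricles at E14.5, against 5.75, 6.02 and 5.91 at E12.5. In right ventricles it read 9.92, 9.83 and 9.65 at E14.5, against 8.75, 8.99 and 8.73 at E12.5. The ventricles overlapped at E14.5 and were far apart at E12.5, with the left lower.

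**Figure D4:**
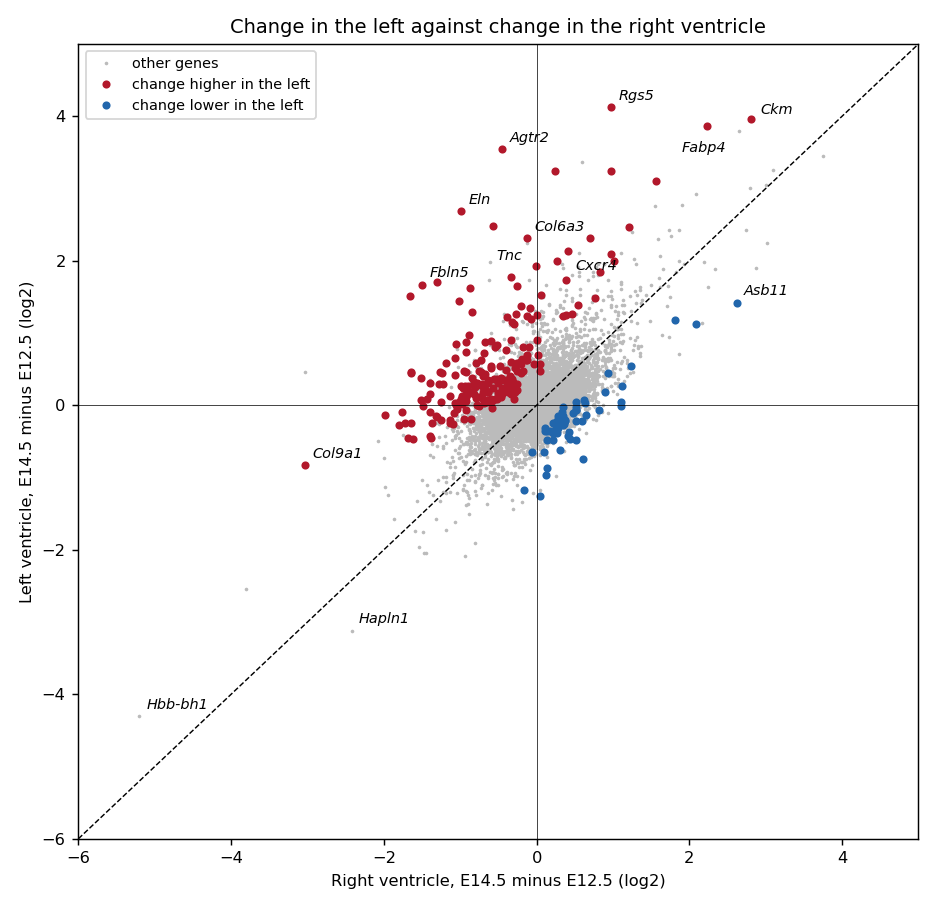
Change between the stages (E14.5 minus E12.5, log2) in left ventricles (vertical axis) against the change in right ventricles (horizontal axis) for 18193 genes, with the line of equal change dashed. The 202 genes with a higher change in the left (red) lie above the line and the 59 with a lower change (blue) below it.

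Several genes of matrix and elastic fibres had a higher change in the left. Of the 29 fibroblast genes 7 were called for the ventricle difference, and the list's median change was 1.03 in left and -0.13 in right ventricles, against -0.011 and 0.045 for all genes. Eln, elastin, differed by 3.68 ± 0.54, and read 7.92, 9.60 and 9.89 in left ventricles at E14.5, against 6.24, 6.59 and 6.50 at E12.5. In right ventricles it read 8.88, 9.21 and 8.21 at E14.5, against 10.00, 9.60 and 9.65 at E12.5. Fbln5, which assembles elastic fibres (3.17 ± 0.41), and Sfrp2, a secreted Wnt inhibitor (3.17 ± 0.79), had their lowest values in left and their highest in right ventricles at E12.5. Averaged over both ventricles neither was called, with stage differences of 0.09 ± 0.19 and -0.08 ± 0.45. Col6a3, a chain of collagen VI, differed by 2.43 ± 0.33, with a change of 2.31 in the left and -0.12 in the right, and Tnc by 1.94 ± 0.32, with 1.93 and -0.01. Of the 22 coronary genes 5 and of the 19 Notch genes 6 were called. Cxcr4 had a difference of 2.14 in the left and 0.41 in the right, and Aplnr of 2.31 and 0.70. In left and right ventricles in turn, Twist1 (-0.24 and -1.72) and Has2 (-0.24 and -1.64) had differences that were larger in size in the right.

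Agtr2, an angiotensin receptor of fetal mesenchyme, differed by 4.0 ± 0.66, the largest value among the genes named here, but was not called with only these 12 arrays in the fit, nor were Tnnc2 and Slc18a2. It read 7.99, 8.04 and 4.46 in left ventricles at E14.5, against 3.14, 3.61 and 3.07 at E12.5, and 2.80 to 4.51 in all right ventricles. Tnnc2, the fast skeletal troponin C, differed by 3.05 ± 0.65, and read 8.33, 10.14 and 7.57 in left ventricles at E14.5, against 6.96, 5.88 and 5.74 at E12.5. The highest values of both genes were in the left arrays with the highest skeletal muscle markers, replicates 1 and 2. Among the lower changes in the left, Asb11, a muscle ubiquitin ligase adaptor, rose in both ventricles, by 1.42 in the left and 2.62 in the right. Yipf7, a Golgi protein of muscle, had differences of 0.05 and 1.11, Capn3, the muscle calpain, of -0.01 and 1.11, and Art1, a muscle ADP-ribosyltransferase, of -1.25 and 0.05. Slc18a2, a vesicular monoamine transporter, had differences of -0.75 and 0.61, and Myo3b, a class III myosin, of -0.97 and 0.12. Without E14.5 left replicate 2 the count was 124, and 12 of the 33 named genes with a called ventricle difference lost it, Sfrp2, Tnnc2, Slc18a2, Asb11, Capn3, Cox6a2, Slc2a1, Casq2, Nrarp, Heyl, Crabp1 and Ptbp1.

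The called genes were looked up in the E9.5 and E18.5 ventricles, whose means share no array with those of E12.5 and E14.5. All these arrays entered the same fit and shared its estimate of each gene's spread. The look-up was therefore not independent of the comparison. Of the 1307 genes higher at E14.5, 1026 (78.5%) were also higher at E18.5 than at E9.5 and 95 (7.27%) lower. Of the 1108 genes lower at E14.5, 882 (79.6%) were also lower at E18.5 than at E9.5 and 68 (6.14%) higher. Over all genes 28.6% were higher and 26.9% lower at E18.5. Ckm had a mean of 6.48 at E9.5, 9.24 at E12.5, 12.63 at E14.5 and 14.29 at E18.5, against 14.34 in the adult. Myom2 had 5.76 at E12.5, 8.78 at E14.5, 12.46 at E18.5 and 13.73 in the adult. Hbb-bh1 was already lower at E12.5 (13.04) than at E9.5 (14.51), and read 4.88 at E18.5. Hbb-y had means of 14.53, 15.01, 13.42 and 5.42 at those 4 stages. On the log2 scale most of its measured fall came after E14.5, though it was already 3.01-fold lower at E14.5 than at E12.5. At E12.5 Hbb-y read near the highest value on any array, 15.2, so its fall to E14.5 may be understated. Some genes turned. Car4 had 11.05 at E8.5, 5.60 at E12.5, 3.98 at E14.5, 6.68 at E18.5 and 8.68 at day 3, with its lowest mean of the ventricle stages at E14.5. Fabp7 had 6.07 at E12.5, 8.65 at E14.5, 8.65 at E18.5 and 5.90 in the adult. Some vessel and mural genes already had means near those of E14.5 in hearts of E8.5. Aplnr had 10.63 at E8.5, 7.79 at E9.5, 9.28 at E12.5 and 10.79 at E14.5. Sox17 had 8.18, 6.63, 6.69 and 8.23 at these stages. Aoc3 had 7.83 at E8.5, 5.89 at E9.5 and 7.85 at E14.5, and Rgs5 had 9.39, 8.21 and 9.91. Fabp4, Gpihbp1, Cd36, Meox2, Cav1, Cldn5 and Kcnj8 had lower means at E8.5 than at E12.5.

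**Figure D5:**
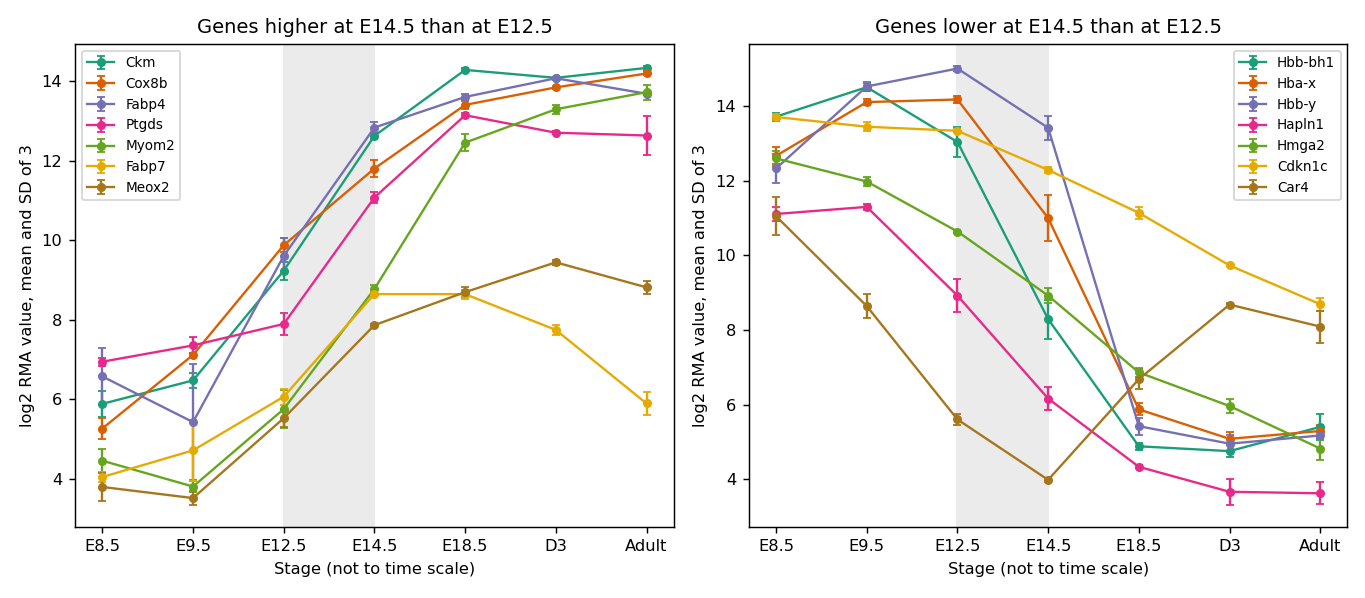
Mean log2 RMA value (vertical axis, with the SD of 3 values as bars) of 14 genes from E8.5 to the adult (horizontal axis, stages not to time scale), with the span of E12.5 to E14.5 shaded. The mean of Ckm is higher at each stage from E9.5 to E18.5 than at the stage before, and Hbb-bh1 drops between E12.5 and E18.5, while Car4 has its lowest mean, 3.98, at E14.5.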

How the data were processed

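Biotin-labelled cRNA of 45 samples was hybridised to Affymetrix mouse arrays, 1 array per sample, per the labels' protocols. The deposited values are log2 signals that the authors summarised by RMA, per the submitters' processing notes, and its version is not given in the sources used here. Array medians were 5.35 to 5.47, and no pair of arrays was identical. The number of arrays limits the precision. Of 45101 probe sets, 34958 had 1 gene symbol in the platform annotation, 932 several and 9211 none. Each of 18193 genes was represented by its probe set of highest average across all arrays.

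Left and right ventricles of the same stage and number were averaged. The stage difference was fitted with limma 3.58.1 in R 4.3.3 (lmFit and eBayes) over 27 values of 9 stages, and the ventricle difference over 45 arrays in 15 groups. Benjamini-Hochberg adjustment ran over all genes. The ventricle values of E12.5 and E14.5 are pools of hearts, so p-values measure only the spread between samples. That spread was pooled over all stages of the fit. A standard error can thus be larger or smaller than the spread at the stages compared. For Agtr2 the SD was 1.00 at E14.5 and the standard error of the stage difference 0.29. On simulated data the stage fit recovered 73% of changes of 0.5, 100% of changes of 1 and 97.3% of changes of 2, with 10 false calls of 191. The ventricle fit recovered 22.2%, 85.9% and 97.3%, with 9 false calls of 149. The simulated noise was independent, with 1 spread per gene for all groups, and only 200 genes were changed. It held neither unequal spreads between stages nor arrays high in markers of other tissues. These rates therefore need not hold for the real arrays.

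The members and gene lists were chosen with earlier results of these data known. The 55 lists held 874 measured genes, and 63 listed genes, Hbb-b1 among them, were not analysed here. Named were the 10 largest rises and falls called with and without E14.5 left replicate 2 and without overlap of the 3 values, up to 6 genes per direction of the ventricle difference, up to 4 called genes per list, and a set of fixed genes. Predicted genes, receptors of smell and probe sets of several genes were passed over. The alternatives changed the samples in the fit, the variance model, the filter on dim genes, the probe set, the scaling, the block and the threshold. Promoters are those of RefSeq. Figures were drawn with Matplotlib 3.10.9.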

Additional observations from a re-analysis of the deposited data

Results flagged for a closer look

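For 33 of the named genes the change between E14.5 and E12.5 differed between left and right ventricles by limma's test of that difference. The values are the change in left minus the change in right ventricles, on the log2 scale. Among matrix, cushion and cartilage genes they were 3.68 for Eln, 3.17 for Fbln5, 2.43 for Col6a3, 1.94 for Tnc, 1.53 for Sparcl1, 1.11 for Nid2, 3.17 for Sfrp2, 2.21 for Col9a1, 1.39 for Has2 and 1.48 for Twist1. Among genes of vessels, Notch signals and mural cells they were 1.60 for Aplnr, 1.73 for Cxcr4, 1.11 for Sox17, 0.92 for Nrp2, 0.72 for Nrarp, 0.86 for Heyl, 3.15 for Rgs5, 1.35 for Pdgfrb and 1.64 for Aoc3. Other genes with a higher change in the left had 4.0 for Agtr2, 3.05 for Tnnc2, 1.16 for Ckm, 0.67 for Slc2a1, 1.85 for Crabp1 and 0.86 for Ptbp1. Genes with a lower change in the left had -1.37 for Slc18a2, -1.29 for Art1, -1.21 for Asb11, -1.12 for Capn3, -1.08 for Myo3b, -1.06 for Yipf7, -0.49 for Cox6a2 and -0.64 for Casq2, most of them genes of muscle. E14.5 left ventricle replicate 2 was high in skin, liver and skeletal muscle genes, and without it the difference was no longer called for 12 of the 33, Sfrp2, Tnnc2, Slc18a2, Asb11, Capn3, Cox6a2, Slc2a1, Casq2, Nrarp, Heyl, Crabp1 and Ptbp1. The other 21 kept their direction and their call.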

How the results depend on the processing

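Of 2415 genes called between E14.5 and E12.5, the count was 1175 with left ventricles only, 4002 with the 12 arrays and a random block, 1239 at an adjusted p under 0.01 and 188 at a difference of at least 2-fold. It was 1344 to 3087 when samples were left out, lowest without E14.5 replicate 1, with 1417 without E12.5 replicate 2. The count of 261 for the ventricle difference was 591 with only the 2 stages in the fit, and 118 to 521 when arrays were left out. It was 147, 151, 127 and 124 without E12.5 left replicates 1 and 3 and right replicates 1 and 2, and 521, 124, 118 and 154 without E14.5 left replicates 1 and 2 and right replicates 1 and 2. Beyond the stricter thresholds, the cause was not tested. The replicate block gave 2345 and 280 calls. Same-numbered left and right ventricles correlated at 0.271, 0.321 and 0.369 at E12.5, where those of unlike number had -0.235 to -0.0639, and at -0.119, -0.139 and 0.11 at E14.5. Left and right ventricles of one number thus deviated together at E12.5, which the 3 pairs of E14.5 did not all do. Across the 2 stages the same numbers had -0.0273, 0.0276 and -0.167. The other settings gave 1947 to 3419 and 243 to 313 calls, and the 2 counts at E18.5 stayed within 1.5 times. Genes with a single probe set kept it in the setting of the second brightest probe set, so that setting did not test them. With the second brightest probe set Eln had -0.05, Sln -0.09, Kcnip2 -0.01, Hbb-b2 -0.40, Tyms 0.33 and Ptbp1 0.02, each with the sign turned. That probe set also ended the call of 34 named genes, Apela, Art1, Capn3, Myo3b, Myh6, Gata4, Hbb-y, Sdhd, Idh2, Sdhc, Cox7c, Cox6c, Cox6b1, Uqcrq, Aldoc, Slc6a8, Tnc, Foxp1, Mcm4, Rbl1, Arid3b, Vtn, Dcn, Podxl, Ms4a7, Mpo, Lef1, Rspo3, Bmp5, Heyl, Igfbp5, Igf2r, Mb and Rbfox2. Calls were lost for 16 with the mean over probe sets, 54 with left and 23 with right ventricles only, and 5 to 34 when samples were left out. Of the 33 genes named for a ventricle difference, 6 lost the call with only the 2 stages in the fit (Agtr2, Tnnc2, Slc18a2, Col9a1, Nrp2 and Crabp1), 5 with the mean over probe sets and 1 to 13 when arrays were left out, with 0 signs turned in these fits and 0 calls lost under the replicate block. Signs also turned with left ventricles only for Capn3 (-0.01), Nid2 (0.03) and Ptbp1 (0.11), and with right ventricles only for Agtr2 (-0.45), Eln (-0.98), Art1 (0.05), Myo3b (0.12), Tnc (-0.01), Nrp2 (-0.10) and Col6a3 (-0.12). Leaving out the 3 E14.5 arrays high in liver genes was chosen after seeing the data. Probe sets near background, such as those of Cox7c, Tyms, Nrg1, Lin28b and Hba-a1, limit what can be said of low genes.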

Other observations

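Few genes of the remaining lists were called. Of 8 genes of lymphatic and venous vessels, Nrp2 was higher at E14.5 and Prox1 lower, and the call of Nrp2 was lost without E14.5 left ventricle replicate 2. Of 21 genes of antigen presentation and the interferon response, Gbp2, an interferon-induced GTPase, rose by 0.71 ± 0.22, and its call was lost without E14.5 left ventricle replicate 2 (adjusted p = 0.0619, limma). Of 10 genes of solute and iron transport 0 were called (1 higher and 1 lower at an unadjusted p under 0.05, limma). Of 8 atrial genes, Sln was the 1 called, the median of the list was -0.41, and 2 fell without the 3 arrays high in liver genes. Of 19 housekeeping genes 3 fell, Vcp (-0.30), Actb (-0.28) and Ywhaz (-0.27), and 1 rose and 5 fell without left ventricle replicate 2. Scaling the arrays to the mean of this list shifted the median of all genes by 0.025.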
